A study of Homo sapiens with 12 samples.

Results

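The genes described here are those whose symbol is ZNF followed by digits and at most 1 letter, the naming series that holds most human zinc finger genes of the KRAB type. The platform annotation gave 466 such genes at least 1 probe set that named no other gene. Where several probe sets named a gene, the brightest on average across the 12 arrays was used. Members were chosen by the control level: a gene was kept when its mean over the 6 control arrays was above log2 6.5. This left 207 members among 19775 genes measured in this way. All 207 also passed the filter on low values, a value over log2 4 on at least 3 arrays, under which 11184 genes and 347 of the ZNF genes were tested. The control level chose the members, so it is given below as a description only.

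Proteins of the C2H2 zinc finger class carry arrays of fingers that each hold a zinc ion and contact a few bases of DNA, so that a row of fingers reads a long sequence. In the KRAB subfamily the fingers follow a KRAB domain, which binds TRIM28 and through it recruits SETDB1 and heterochromatin proteins that silence transposable elements and some genes. Many of these genes arose by tandem duplication and stand in clusters, above all on chromosome 19. Other ZNF symbols belong to proteins with no KRAB domain, which act in transcription, in RNA processing, at the spindle or at ribosomes. Which members carry a KRAB domain was not analysed here.

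RNA came from HK-2 cells, an immortalised line derived from human proximal tubule epithelium, and was measured on Affymetrix arrays. The 4 groups were cells given a high dose of the agent labelled Aa for 24 h, cells given it for 48 h, and cells given the control vehicle for 24 h and for 48 h, with 3 biological replicates in each, per the labels. Neither the identity of Aa nor its dose is stated in the labels, and a single cell line under a single dose stands for the tubule. The deposited values are log2 expression from GCRMA, and all levels and changes below are on that log2 scale, with a change given as Aa minus control of the same time. Between replicates the correlation across probe sets was 0.985 to 0.991.

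The labelled cell type was checked with marker genes. Of 16 proximal tubule and HK-2 markers on the array, 7 passed the filter: KRT8, KRT18, KRT19, VIM, PAX8, CDH2 and CDH6. The brush border and transport markers ANPEP, GGT1, LRP2, CUBN, AQP1, SLC34A1 and MME had control means between 2.11 and 2.99, where the array reads background. Markers of leukocytes (PTPRC, CD14, CD3E) and of endothelium (PECAM1, CDH5, VWF) did not exceed 3.54 on any array, and COL1A1 was the only marker of fibroblasts above the filter. SLC12A1 was the only distal nephron marker above the filter, at 4.06 in control cells. Of the 7 proximal tubule and HK-2 markers tested, 0 rose and 4 fell at 24 h and 1 rose and 5 fell at 48 h, and the list's summed level was 102 to 104 in Aa cells and 109 to 110 in control cells at 24 h, and 99.3 to 102 in Aa cells and 106 to 109 in control cells at 48 h. The 3′ minus 5′ difference of the ACTB and GAPDH control transcripts, which grows as RNA degrades, was 0.264 to 0.547 in Aa cells and 0.246 to 0.355 in control cells at 24 h, which overlap, and 0.431 to 0.680 in Aa cells and 0.235 to 0.418 in control cells at 48 h, which do not. The part of marker levels and RNA quality in the results below was not tested.

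In control cells the members ran from 6.53 to 12.44, with a median of 7.79. Of the 207, 112 lay below 8, 78 between 8 and 10, and 17 above 10. Since probe sets differ in brightness, these levels rank no gene against another. ZNF605, ZNF777 and ZNF493 stood just inside the threshold with control means of 6.53, 6.54 and 6.59, and ZNF684, ZNF136 and ZNF77 just outside it with 6.44, 6.42 and 6.42. Their changes at 24 h and 48 h were 0.18 and -0.18 for ZNF605, -0.15 and -1.01 for ZNF777 and 0.55 and 1.43 for ZNF493, and outside 0.59 and 0.95 for ZNF684, 1.42 and 1.29 for ZNF136 and 0.04 and 0.81 for ZNF77.

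On the deposited values members that rose outnumbered members that fell at both times, which at 48 h turned round with another scaling given below. At 24 h, 95 members rose and 16 fell in Aa cells against control cells by limma's adjusted p under 0.05, where 26.3% of all genes tested rose and 22.8% fell. That is 45.9% and 7.73% of the members, against 24% and 25.3% of the 8816 genes tested with a control mean above log2 6.5, members included. At 48 h, 93 members (44.9%) rose and 48 (23.2%) fell, where 30.6% of all genes rose and 33.9% fell. Of the genes with the same control level 28.2% rose and 37.6% fell then. The median change of the members was 0.36 at 24 h and 0.24 at 48 h, while the median of all genes tested was 0.02 and -0.03. The members' median therefore lay 0.34 above that of all genes at 24 h and 0.27 above it at 48 h. On all 3 Aa arrays above all 3 control arrays stood 107 members at 24 h, where 30.8% of all genes did so, and 96 members at 48 h, where 33% did. Below all 3 control arrays stood 24 members at 24 h, where 29% of all genes did, and 51 at 48 h, where 36.1% did. In RNA of whole cultures a change in a transcript's level per cell and a change in which cells are present cannot be told apart.

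How far these counts are rises depends on the scaling of the arrays. When the deposited values were shifted further, to align the arrays on the manufacturer's hybridisation controls, every change fell by 0.28 at 24 h and by 0.44 at 48 h. On that scale 54 members (26.1%) rose and 33 (15.9%) fell at 24 h, where 14.9% of all genes rose and 34.5% fell, and the members' median was 0.08. At 48 h 55 (26.6%) rose and 83 (40.1%) fell, where 16.2% of all genes rose and 52.7% fell, and the median was -0.20, so it changed sign. The share of called members that rose was 85.6% at 24 h and 66.0% at 48 h on the deposited values, and 62.1% and 39.9% with the hybridisation controls. Over all genes tested that share was 53.6% and 47.5% on the deposited values, and 30.2% and 23.5% with the hybridisation controls. This scaling shifts all genes alike, so it leaves the members' distance from the median of all genes as it was by construction. With quantile normalisation the distance was 0.31 at 24 h and 0.29 at 48 h. All 54 and 55 had also risen on the deposited values. Directions below hold for the deposited values, and medians of groups of members are given relative to all genes.

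**Figure D1:**
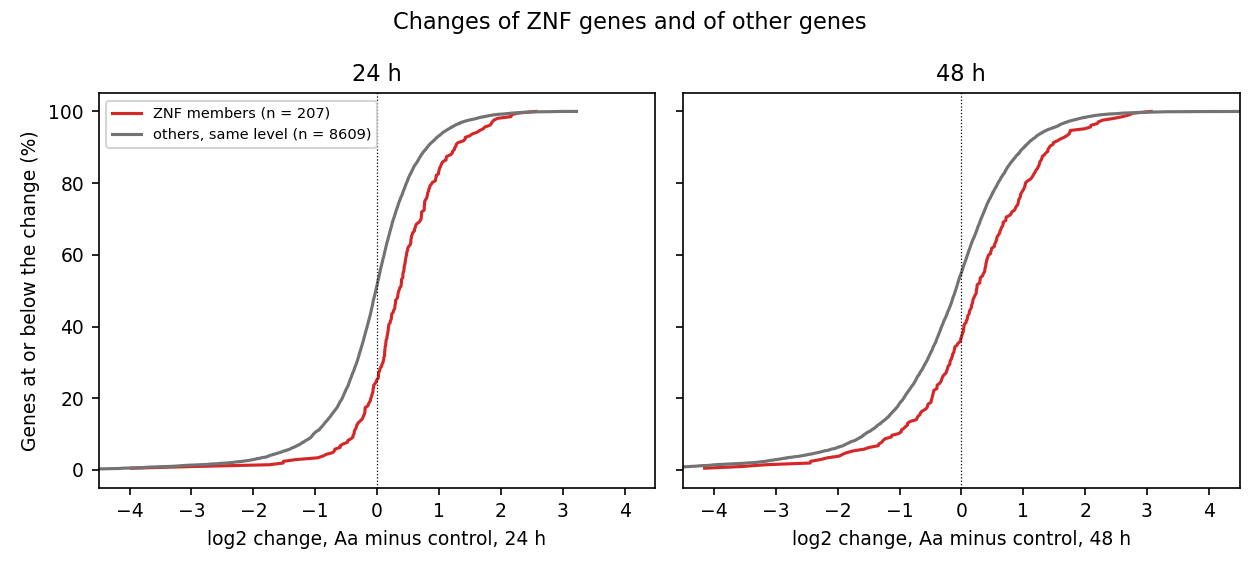
Cumulative share of genes (vertical axis, percent) at or below a log2 change of Aa minus control (horizontal axis, cut at 4.5 on either side) at 24 h and 48 h, for the 207 members and for 8609 other genes with the same control level. The members' curve lies right of the other genes' curve, with medians of 0.36 against -0.02 at 24 h and 0.24 against -0.10 at 48 h, and with the hybridisation-control scaling both 48 h medians lie below 0.

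The calls at the 2 times were set side by side, for the members and for other genes. Of the 207, 79 rose at both times (38.2%, against 17.3% of the other genes at the same control level) and 14 fell at both times (6.76%, against 21.7%). Another 32 members were not called at 24 h and fell at 48 h (15.5%, against 15.6%), and 51 were called at neither time (24.6%, against 24.9%), both at the level of the other genes. Not called at 24 h and risen at 48 h were 13 (6.28%, against 10.3%). Opposite calls at the times were made for 3 members (1.45%, against 0.860%). ZNF18 and ZNF436 rose at 24 h by 0.48 and 0.76 and fell at 48 h by 0.66 and 0.54, and ZNF7 had a change of -0.39 at 24 h and 0.40 at 48 h, all with limma's adjusted p between 0.0046 and 0.0465. Over the members the changes at the 2 times had a Pearson r of 0.85 and a Spearman rho of 0.83, which describes genes measured on the same arrays and not independent replicates.

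**Figure D2:**
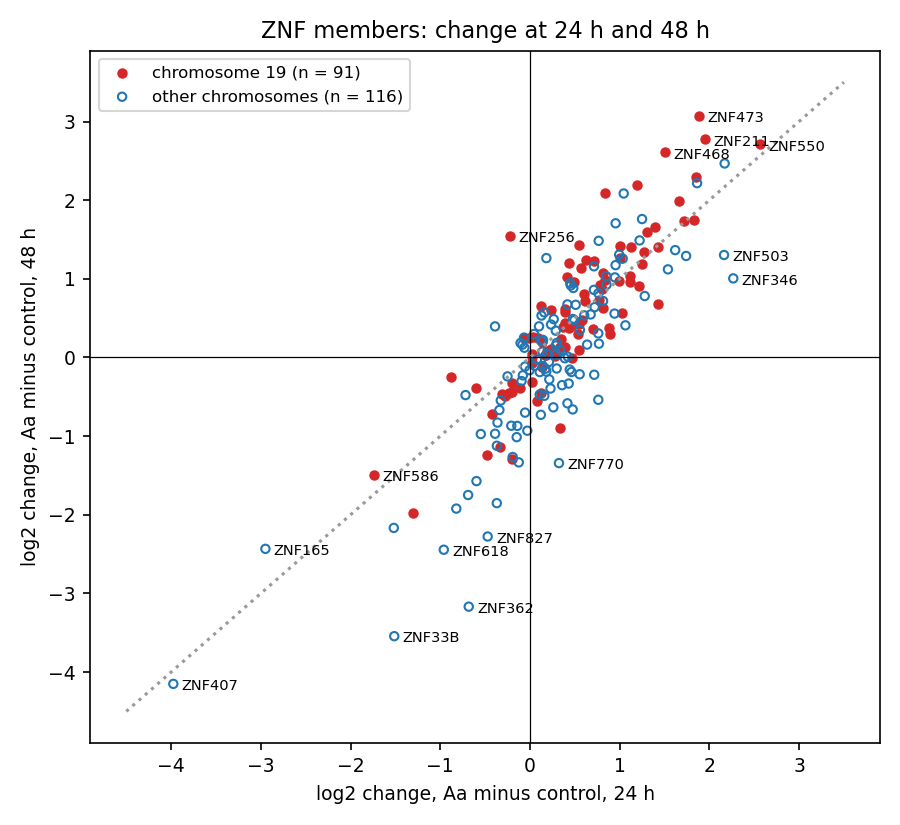
Log2 change of each of the 207 members at 24 h (horizontal axis) and 48 h (vertical axis), Aa minus control, with members on chromosome 19 filled and the dotted line marking equal change. ZNF473, ZNF211 and ZNF550 stand at the upper right, ZNF407 at the lower left, and ZNF362, ZNF33B and ZNF827 far below the line.

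The largest rise among the members at 48 h was that of ZNF473, whose product works with the U7 snRNP in cutting the 3′ ends of histone pre-mRNAs. ZNF473 read 8.90, 9.02 and 8.99 in Aa cells at 24 h, against 6.81, 7.12 and 7.31 in control cells. At 48 h it read 9.66, 9.76 and 9.88 in Aa cells, against 6.47, 6.51 and 7.12 in control cells. The groups were far apart at both times, and the Aa arrays at 48 h lay above those at 24 h. The change was 1.89 (SE 0.18) at 24 h and 3.07 (SE 0.18) at 48 h, a 3.70-fold and an 8.39-fold rise with limma's adjusted p of 9.63e-06 and 1.68e-07. Both of its probe sets above background moved the same way.

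ZNF211, a neighbour of ZNF550 in the cluster near the end of the long arm of chromosome 19, had closely grouped replicates. It read 8.91, 8.84 and 8.97 in Aa cells at 24 h and 6.81, 6.96 and 7.11 in control cells, then 9.67, 9.62 and 9.80 in Aa cells at 48 h and 6.89, 7.07 and 6.79 in control cells. The change was 1.95 at 24 h and 2.77 at 48 h (SE 0.11 each), with limma's adjusted p of 2.43e-07 and 1.12e-08. ZNF550 had the largest rise of all members at 24 h, with 9.63, 9.65 and 9.39 in Aa cells against 7.01, 7.21 and 6.76 in control cells, a 5.93-fold change. At 48 h ZNF550 read 9.72, 9.96 and 9.92 in Aa cells against 7.52, 7.47 and 6.48 in control cells, where the third control replicate stood below the others. The change of 2.71 (SE 0.24) was close to the 2.57 of 24 h.

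ZNF468 rose further with time. Its Aa arrays read 9.95, 9.95 and 9.33 at 24 h against 8.13, 8.27 and 8.32 in control cells, and 10.91, 10.75 and 11.00 at 48 h against 8.29, 8.36 and 8.20 in control cells. The change was 1.5 at 24 h and 2.61 at 48 h (SE 0.16 each, limma's adjusted p 2.18e-05 and 2.27e-07). ZNF600 and ZNF614 of the same cluster rose by 1.19 and 1.85 at 24 h and by 2.20 and 2.29 at 48 h. The probe set of ZNF600 carries the suffix that marks probes shared with related transcripts.

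Large rises were not confined to chromosome 19. ZNF335, a subunit of histone H3K4 methyltransferase complexes that is mutated in a form of microcephaly, lies on chromosome 20. It read 9.59, 8.88 and 9.57 in Aa cells at 24 h against 7.5, 6.67 and 7.36 in control cells, and 9.37, 9.02 and 9.77 at 48 h against 6.92, 6.87 and 6.96. The groups did not overlap, and the changes were 2.17 and 2.47 (SE 0.26 each, limma's adjusted p 5.36e-05 and 1.12e-05). ZNF75A on chromosome 16 rose by 1.86 and 2.22 with an SE of 0.10. Its Aa arrays spanned 9.17 to 9.69 over both times and its control arrays 7.24 to 7.46. The other probe set of ZNF75A above background changed by only 0.14 and 0.19, from control means of 6.88 and 6.98. That probe set carries the suffix that marks probes shared with related transcripts.

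ZNF346 and ZNF503 were among the largest rises at 24 h and had smaller changes at 48 h. The difference between the times was not called for either gene (ZNF503: -0.86, limma's adjusted p = 0.0849). ZNF346, a protein of the nucleolus that binds double-stranded RNA, read 8.87, 8.99 and 8.59 in Aa cells against 6.81, 6.82 and 6.02 in control cells at 24 h. Later, at 48 h, it read 8.02, 8.49 and 7.35 in Aa cells against 6.98, 7.24 and 6.63 in control cells, so the groups still did not overlap but stood close. The change was 2.27 at 24 h and 1.01 at 48 h (SE 0.30 each), and the difference of -1.26 did not pass the test (limma's adjusted p = 0.0578). Without the second Aa replicate of 48 h the 48 h change of ZNF346 was 0.74 and was no longer called, and with the hybridisation-control scaling it was 0.56 (limma's adjusted p = 0.101). Of the 3 probe sets of ZNF346 above background, another changed by 0.0050 and -0.52. The third changed by 3.96 and 2.37, but its control means of 2.24 and 2.33 were at background, so the sizes are uncertain. ZNF503, a corepressor of the NET family known from limb and brain development, averaged 11.03 ± 0.20 in Aa cells and 8.86 ± 0.12 in control cells at 24 h, and 10.56 ± 0.19 in Aa cells and 9.26 ± 0.54 in control cells at 48 h (SD, n = 3 each).

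**Figure D3:**
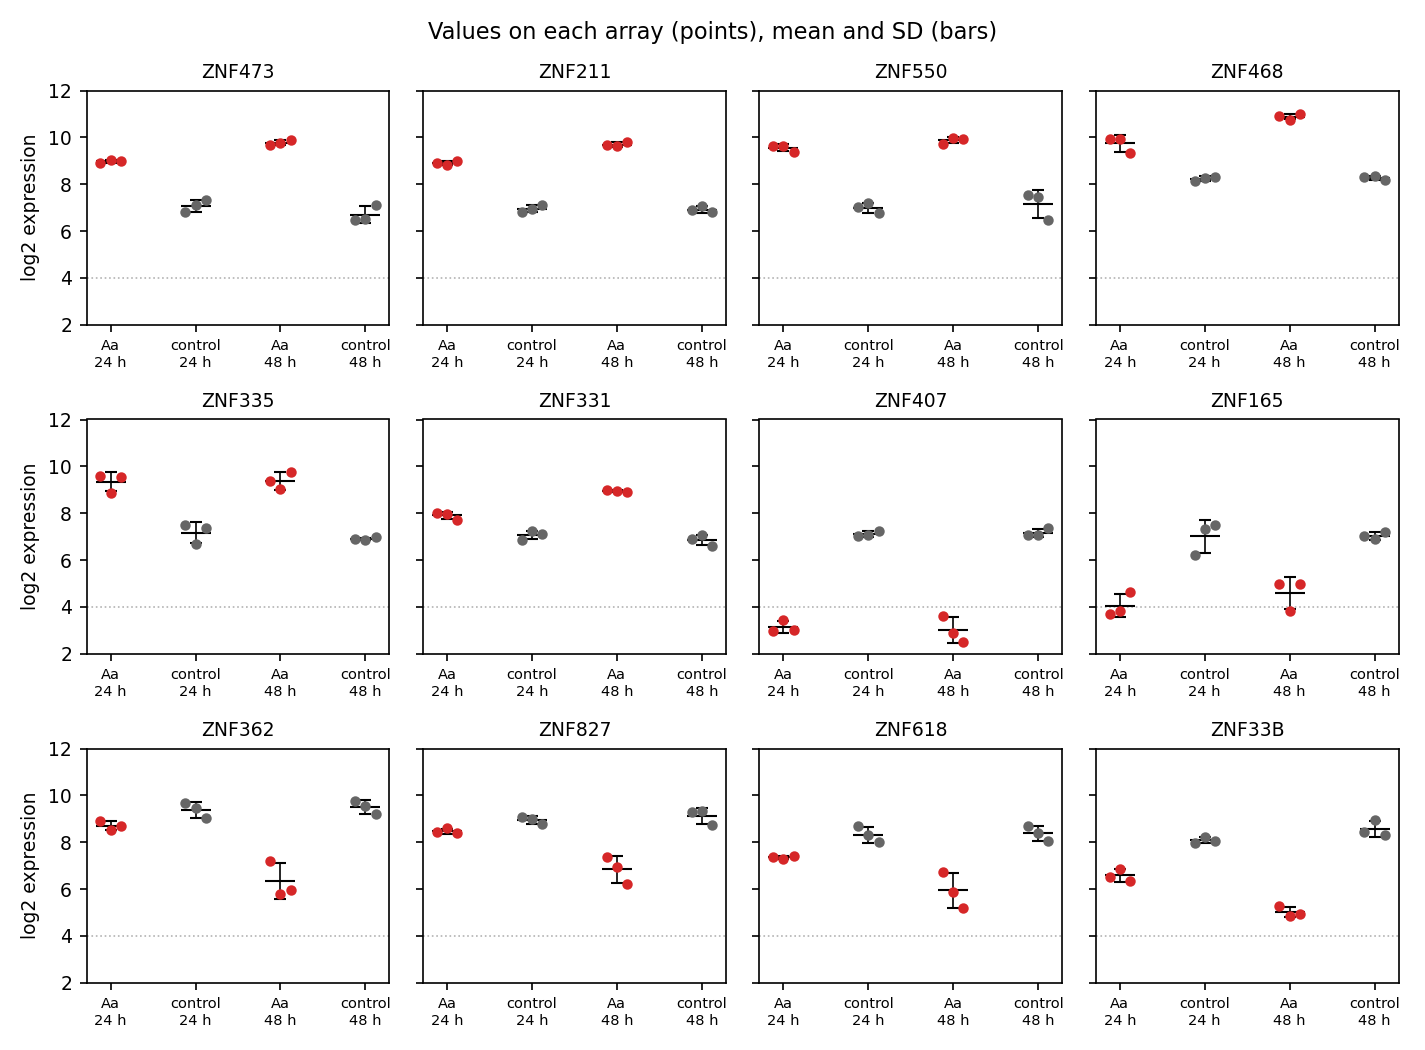
Log2 expression of 12 members on each array (points), with the mean and SD of each group of 3 arrays (bars), in the order Aa 24 h, control 24 h, Aa 48 h and control 48 h, and a dotted line at log2 4. ZNF473, ZNF211, ZNF550, ZNF468, ZNF335 and ZNF331 lie higher in Aa cells at both times, ZNF407 lies under log2 4 on all 6 Aa arrays, and ZNF362, ZNF827 and ZNF618 fall mainly at 48 h.

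The falls were fewer and some of them were deeper. ZNF407, which encodes a large protein with many zinc fingers, read 2.96, 3.42 and 3.03 in Aa cells at 24 h against 7.03, 7.07 and 7.23 in control cells. At 48 h it read 3.63, 2.88 and 2.52 in Aa cells against 7.06, 7.05 and 7.36 in control cells. All 6 Aa arrays were thus at background, so only a bound can be given: with those arrays set to log2 4, the signal was at least 8.65-fold lower at 24 h and at least 8.93-fold lower at 48 h (limma's adjusted p 3.9e-07 and 1.71e-07). The other 3 probe sets of ZNF407 read between 2.54 and 2.73 in every group mean, at background.

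ZNF165, a SCAN domain gene known as an antigen of testis and tumours, read 3.71, 3.83 and 4.64 in Aa cells at 24 h against 6.20, 7.31 and 7.5 in control cells. The 48 h arrays read 4.98, 3.82 and 4.99 in Aa cells against 7.02, 6.89 and 7.20 in control cells. Part of the Aa arrays lay under log2 4, and the signal was at least 6.94-fold lower at 24 h and at least 5.19-fold lower at 48 h (limma's adjusted p 0.00012 and 0.00027). ZNF586, ZNF883 and ZNF114 also fell at both times, by 1.74, 1.52 and 1.31 at 24 h and by 1.49, 2.17 and 1.97 at 48 h. In each of these the 3 Aa arrays lay below the 3 control arrays at both times.

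ZNF880 fell at 24 h only, by 0.88 (limma's adjusted p = 0.0149), and its 48 h arrays overlapped. That call was lost when the third Aa replicate or the third control replicate of 24 h was left out, with changes of -0.67 and -0.64.

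A further set fell mainly at 48 h. ZNF362 read 8.89, 8.52 and 8.68 in Aa cells at 24 h, against 9.66, 9.47 and 9.01 in control cells. The 48 h arrays read 7.22, 5.81 and 5.98 in Aa cells, against 9.76, 9.54 and 9.21 in control cells. The change of -0.68 at 24 h did not pass the test (SE 0.33, limma's adjusted p = 0.106; it passed with the replicate number as a block), and that of -3.17 at 48 h did (adjusted p = 9.37e-06), an 8.99-fold lower signal. Its other 2 probe sets were at background in all groups.

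ZNF827, which brings the NuRD complex to telomeres in cells that maintain them by recombination, averaged 8.48 ± 0.10 in Aa cells and 8.95 ± 0.16 in control cells at 24 h, a change of -0.47 that was not called, but was with the replicate block (limma's adjusted p = 0.0402). At 48 h it averaged 6.84 ± 0.58 in Aa cells and 9.12 ± 0.32 in control cells (SD, n = 3 each), a change of -2.28. All 4 of its probe sets above background moved down at both times. ZNF618, a partner of the methyl-cytosine reader UHRF2, had a change of -0.96 at 24 h and -2.44 at 48 h, and its Aa arrays at 48 h spread from 5.21 to 6.72. The 24 h call of ZNF618 was lost without any of the 3 Aa replicates of 24 h or without the first or second control replicate, with changes between -0.78 and -0.99.

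The fall of ZNF33B rests on a probe set that matches related transcripts too. By that probe set it read 6.52, 6.87 and 6.35 in Aa cells at 24 h against 7.99, 8.24 and 8.06 in control cells, and 5.26, 4.84 and 4.94 in Aa cells at 48 h against 8.44, 8.94 and 8.29 in control cells. This gave -1.51 and -3.54. The only other probe set of ZNF33B above background, a dimmer one without the suffix, averaged 4.20 in Aa cells and 3.13 in control cells at 24 h and 3.45 in Aa cells and 3.10 in control cells at 48 h, so it went up by 1.06 and 0.35, neither of them called. This dimmer probe set had control means under log2 4, at background, so it could show no fall. Which transcript fell cannot be told from these values.

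The promoters of 6 members with large changes, picked after their values were seen, are shown, since genes that rise and genes that fall can be set side by side in their start regions. RefSeq's table (GRCh38.p14) held a promoter, 250 bases before to 50 after the gene's start, for 179 of the 207 members. Each is printed in the direction of the gene. Capitals mark letters of 9 short motifs searched on both strands. The site of Sp factors was searched as GGGCGG, that of ETS factors as CCGGAAG, and that of the factor NF-Y as CCAAT. The core of the cyclic AMP response element was searched as TGACG, and the E-box of MYC and USF proteins as CACGTG. For the factor NRF1 the letters were GCATGCG, for the TATA-binding protein TATAAA, for the product of ZNF143 they were ACTACAA, and for YY1 they were AAGATGG. Matches may overlap, as the response element and its mirror image do in ZNF335.
The first 3 rose at both times.
ZNF550: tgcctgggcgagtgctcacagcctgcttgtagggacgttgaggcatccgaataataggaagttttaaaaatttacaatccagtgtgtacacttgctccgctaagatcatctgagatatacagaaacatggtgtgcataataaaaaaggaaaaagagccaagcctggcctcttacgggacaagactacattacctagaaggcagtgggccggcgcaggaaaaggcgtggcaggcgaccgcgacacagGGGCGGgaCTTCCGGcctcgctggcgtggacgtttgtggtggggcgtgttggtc
ZNF468: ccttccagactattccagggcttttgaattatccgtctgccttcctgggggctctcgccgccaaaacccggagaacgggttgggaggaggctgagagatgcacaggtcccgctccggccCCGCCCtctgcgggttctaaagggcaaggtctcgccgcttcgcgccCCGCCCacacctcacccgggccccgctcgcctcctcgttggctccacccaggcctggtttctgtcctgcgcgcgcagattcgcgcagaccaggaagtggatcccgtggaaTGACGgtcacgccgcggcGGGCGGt
ZNF335: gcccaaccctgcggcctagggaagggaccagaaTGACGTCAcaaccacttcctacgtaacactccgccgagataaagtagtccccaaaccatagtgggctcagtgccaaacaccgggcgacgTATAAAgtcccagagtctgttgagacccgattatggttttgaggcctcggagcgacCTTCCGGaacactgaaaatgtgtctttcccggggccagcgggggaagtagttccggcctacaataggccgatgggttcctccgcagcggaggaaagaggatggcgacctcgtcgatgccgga
The other 3 fell, ZNF33B by the probe set that is shared with related transcripts.
ZNF407: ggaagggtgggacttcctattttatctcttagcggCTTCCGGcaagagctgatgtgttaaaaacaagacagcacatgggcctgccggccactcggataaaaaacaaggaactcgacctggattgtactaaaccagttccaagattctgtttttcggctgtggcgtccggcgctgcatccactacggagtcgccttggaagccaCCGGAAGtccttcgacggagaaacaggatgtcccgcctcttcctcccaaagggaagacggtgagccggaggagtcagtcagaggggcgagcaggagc
ZNF33B: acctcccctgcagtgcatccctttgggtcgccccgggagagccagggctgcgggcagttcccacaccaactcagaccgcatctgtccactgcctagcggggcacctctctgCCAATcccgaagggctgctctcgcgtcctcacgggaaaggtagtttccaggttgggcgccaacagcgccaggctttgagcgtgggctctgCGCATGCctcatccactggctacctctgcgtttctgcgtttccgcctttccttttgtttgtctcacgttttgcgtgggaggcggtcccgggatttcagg
ZNF362: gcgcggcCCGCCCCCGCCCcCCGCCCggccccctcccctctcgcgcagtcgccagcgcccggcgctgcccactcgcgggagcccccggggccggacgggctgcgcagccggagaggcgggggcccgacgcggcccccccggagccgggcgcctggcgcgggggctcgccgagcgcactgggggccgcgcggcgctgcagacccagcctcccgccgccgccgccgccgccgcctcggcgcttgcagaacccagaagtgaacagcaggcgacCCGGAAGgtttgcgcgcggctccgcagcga

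The start of ZNF550 lies at chr19:57559814-57560113 on the minus strand, that of ZNF468 at chr19:52857570-52857869 (minus), that of ZNF335 at chr20:45972154-45972453 (minus), that of ZNF407 at chr18:74597620-74597919 (plus), that of ZNF33B at chr10:42638521-42638820 (minus) and that of ZNF362 at chr1:33256242-33256541 (plus). The ETS letters stand in 4 of these 6 windows, in those of rising ZNF550 and ZNF335 and of falling ZNF407 and ZNF362, and not in those of rising ZNF468 and falling ZNF33B. Over the members they were in 44.7% of promoters, against 14.2% of the 15843 promoters of protein-coding genes and 10.7% of all 27305. Among members that rose at both times 42.3% of 71 held them, and among those that fell at both times 6 of 10, so they were frequent in the family in both directions. The TGACG letters were in 35.2% of members, 45.1% of those that rose at both times and 1 of 10 of those that fell, against 29.5% of coding promoters. The ACTACAA letters stood in 8.94% of members against 3.14% of coding promoters, and TATAAA in 3.35% against 9.63%. These are matches of letters in a fixed window, given with no test.

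The times were compared directly through the difference of the 2 changes. The 48 h change was above the 24 h change in 13 members and below it in 23 by limma's adjusted p under 0.05, where 6.8% and 12.7% of all genes were called in these directions. Of the members' 207 genes that is 6.28% and 11.1%, shares near the background. The largest positive differences were those of ZNF256 (1.77), ZNF331 (1.26), ZNF473 (1.18) and ZNF468 (1.11), and the largest negative ones those of ZNF362 (-2.49), ZNF33B (-2.03), ZNF827 (-1.81) and ZNF770 (-1.67). With the replicate number as a block 22 members (10.6%) lay above and 50 (24.2%) below, where 15.4% and 23.1% of all genes did. The count below was 13 without the second Aa replicate of 24 h or the third of 48 h and 9 without the third control replicate of 24 h. It was 12, 11 and 35 without control replicates 1, 2 and 3 of 48 h.

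ZNF256 was the clearest late riser. It read 6.88, 7.04 and 6.59 in Aa cells at 24 h against 7.15, 6.81 and 7.21 in control cells, where the groups overlapped, and 8.52, 8.29 and 8.64 at 48 h against 6.57, 7.19 and 7.05, where they did not. The 48 h change was 1.55 (SE 0.19, limma's adjusted p = 2.96e-05). ZNF331, an imprinted KRAB gene, rose by 0.84 at 24 h and by 2.10 at 48 h, with Aa arrays between 8.91 and 8.98 at 48 h against 6.61 to 7.07 in control cells. ZNF593, whose yeast counterpart takes part in making the large ribosomal subunit, rose at 48 h only, by 1.26. ZNF770 had a change of 0.32 at 24 h, which was not called, and of -1.34 at 48 h. Its call for the difference between the times was lost without any of 6 arrays, with values between -1.42 and -1.64.

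The Aa arrays were also compared with each other, which uses no control array. The Aa arrays took part in choosing each gene's probe set, though not in the threshold on the control level. Against Aa cells at 24 h, 22 members were higher and 33 lower in Aa cells at 48 h by limma's adjusted p under 0.05, where 9.65% of all genes rose and 19.5% fell. The extremes were ZNF256 (1.65) and ZNF362 (-2.36). The replicate block took the rises to 35 (16.9%, against 16.1% of all genes), and the count of falls was 21 without the second Aa replicate of 24 h and 19 without the third of 48 h. Between control cells at 48 h and at 24 h limma called 0 members, where 0.277% of all genes rose and 0.358% fell. At an unadjusted p under 0.05, 22 members rose and 3 fell between the control times, and with the replicate block 12 rose and 3 fell after adjustment, or 5.80% and 1.45%, where 6.65% and 8.27% of all genes did.

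A list of 37 ZNF genes with a known role held 24 members. Of these 24, 13 rose and 0 fell at 24 h by limma's adjusted p (0 fell also at an unadjusted p under 0.05), and 14 rose and 4 fell at 48 h, where 26.3% of all genes rose and 22.8% fell at 24 h, and 30.6% rose and 33.9% fell at 48 h. ZNF326, a subunit of the DBIRD complex that joins splicing to RNA polymerase II elongation, read 10.31, 10.39 and 10.08 in Aa cells at 24 h against 9.44, 9.46 and 9.58 in control cells, and 10.59, 10.64 and 10.52 at 48 h against 9.15, 9.09 and 9.05. The arrays were tightly grouped, and the changes were 0.77 and 1.48 (SE 0.10 each, limma's adjusted p 9.57e-05 and 4.64e-07). ZNF598, the ubiquitin ligase that marks collided ribosomes, rose by 0.95 and 1.17, with Aa arrays between 7.89 and 8.30 and control arrays between 6.37 and 7.35 over both times. ZNF622, which helps to mature the large ribosomal subunit, rose by 0.48 and 0.88, the 24 h call being lost in 3 of the 12 fits that leave out 1 array.

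ZNF638, which acts in splicing and recruits the HUSH silencing complex to retroviral DNA, rose by 0.94 at 24 h and 0.56 at 48 h by a probe set shared with related transcripts. Its probe set without that suffix gave -0.18 and 0.74, neither called. ZNF207, a spindle protein that loads BUB3 at kinetochores, had the highest control mean of all members. It read 11.99, 12.23 and 12.57 in Aa cells at 24 h against 12.23, 12.60 and 12.58 in control cells, with overlap. At 48 h it read 11.39, 11.60 and 11.66 in Aa cells against 12.25, 12.52 and 12.49 in control cells, a change of -0.87 (SE 0.16, limma's adjusted p = 0.000724). Of the other members with the highest control levels ZNF706 fell at both times (-0.55 and -0.97), ZNF146 fell at 48 h (-0.39), and ZNF664 and ZNF639 were called at neither time. The change of -0.28 of ZNF639 at 48 h was called with the replicate block (limma's adjusted p = 0.0471). Another probe set of ZNF207 above background changed by 0.32 and 0.75, and its remaining ones above background changed downward at both times. By the mean of all its probe sets ZNF207 changed by -0.65, which was called (limma's adjusted p = 0.0191), and by -0.37, which was not. Another probe set of ZNF706 changed by 0.017 and -1.53.

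The transcription factors of the list were mixed. ZNF143, an activator of snRNA and many other promoters, was not called at 24 h (0.05) and rose by 0.30 at 48 h with limma's adjusted p = 0.0469, a call lost in 10 of the 12 fits that leave out 1 array. ZNF281 (0.19 and 0.05) and ZNF217 (-0.09 and -0.30), a repressor amplified in breast cancer, were not called. The other probe sets of ZNF281 above background changed by 0.80 and 0.95 and by 0.65 and 1.02. By the mean of all its probe sets ZNF281 rose by 0.55 and 0.67 (limma's adjusted p 0.000229 and 3.02e-05). ZNF148, a factor of GC-rich promoters, changed by -0.03 at 24 h and fell by 0.93 at 48 h, with Aa arrays at 9.70, 10.08 and 9.68 against 10.56, 11.07 and 10.62. ZNF24 and ZNF444, both with a SCAN domain, rose by 0.42 and 0.39 at 24 h and by 0.67 and 0.62 at 48 h. Their 24 h calls were lost in 4 (ZNF24) and 8 (ZNF444) of the 12 fits that leave out 1 array, and all 4 calls were lost with the hybridisation-control scaling. ZNF24 had another probe set above background that changed by -0.72 and -0.69. ZNF384 (0.27, not called, and 0.49), ZNF292 (0.72, and -0.22, not called) and ZNF395, a factor induced by hypoxia (0.43, and -0.33, not called), were called at a single time. By the mean of all its probe sets ZNF292 changed by 0.32, not called, and by -0.55, called (limma's adjusted p = 0.00353). By the probe sets used, ZNF532 and ZNF268 were called at 48 h only, with falls of 0.67 and 0.70. The probe set used for ZNF532 carries a suffix that marks shared probes. Its other probe set, without that suffix, changed by -1.18 at 24 h and -2.21 at 48 h. The 24 h fall of ZNF532 was called by that probe set (limma's adjusted p = 0.0392). It was also called by the mean of its probe sets (-0.76, adjusted p = 0.0416). ZNF462 was called at neither time (0.30 and 0.19), and ZNF267 rose at 48 h only (0.40). The replicate block gained calls for ZNF462 at 24 h and for ZNF217 and ZNF395 at 48 h (limma's adjusted p 0.0245, 0.0180 and 0.00349). Another 2 probe sets of ZNF268 above background changed by 0.27 and 0.01 and by 1.26 and 0.53.

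ZNF274, ZNF91 and ZNF93 of the list are known to act at the ZNF genes themselves or at transposable elements. ZNF274 recruits TRIM28 and SETDB1 to the 3′ ends of other zinc finger genes. It read 10.52, 10.71 and 10.64 in Aa cells at 24 h against 9.86, 9.75 and 9.77 in control cells, and 10.56, 10.75 and 10.90 at 48 h against 9.70, 9.72 and 9.83. The groups were well apart, with changes of 0.83 and 0.99 (SE 0.10 each, limma's adjusted p 7.69e-05 and 1.2e-05). A dimmer probe set of ZNF274 gave -0.74 and 0.56, neither called. ZNF91, which represses SVA elements, rose by 0.55 and 0.43, but with the hybridisation-control scaling the changes were 0.26, not called, and -0.01. Its other probe set above background changed by -0.36 and -0.93, and the mean of all its probe sets by 0.0068 and -0.061. ZNF93, which represses older LINE-1 elements, was not called (0.10 and 0.24) by the probe set used, which carries a suffix of shared probes. Its other probe set above background, also with such a suffix, changed by 0.31 and 0.76. By the mean of all its probe sets ZNF93 changed by -0.11, not called, and by 0.37, called (limma's adjusted p = 0.0213).

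The least changed members, by the sum of both changes, were ZNF175 (0.02 and 0.00), ZNF428 (0.02 and 0.04) and ZNF587B (0.02 and -0.07), and their Aa and control arrays overlapped at both times.

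The genes of the proteins that KRAB domains work with moved in both directions. Of 29 corepressor genes, which encode TRIM28, SETDB1, HP1 proteins, the NuRD and HUSH complexes and enzymes of histone H3K9 and DNA methylation, 28 were tested. At 24 h 5 rose and 4 fell, and at 48 h 9 rose and 9 fell, where 26.3% of all genes rose and 22.8% fell at 24 h, and 30.6% rose and 33.9% fell at 48 h. TRIM28, the scaffold that KRAB domains bind, had a change of 0.48 at 24 h that was not called (limma's adjusted p = 0.225) and rose by 0.95 at 48 h (adjusted p = 0.02). SETDB1, the H3K9 methyltransferase that TRIM28 recruits, fell by 0.45 and 0.91. The other H3K9 methyltransferases of the list were mixed. EHMT2 rose by 0.77 and 0.63. At 48 h only, SUV39H1 rose by 1.27 and SUV39H2 by 0.70, and EHMT1 fell by 0.62. DAXX, a chaperone of histone H3.3, rose by 1.07 and 1.87, and CHD3 of NuRD by 0.77 and 1.79, while PPHLN1 of HUSH fell by 0.90 and 1.5 and RBBP4 by 0.83 and 0.69.

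The members were split by their place in the genome, and the differences between the splits were not tested. On chromosome 19 lay 91 members (44.0%), and on 20 other chromosomes 116. Of the chromosome 19 members 50 rose and 5 fell at 24 h and 51 rose and 15 fell at 48 h. Their median lay 0.44 above that of all genes at 24 h and 0.46 above it at 48 h. Of the others 45 rose and 11 fell at 24 h and 42 rose and 33 fell at 48 h, with medians 0.24 and 0.09 above. The 459 other genes of chromosome 19 with the same control level had 85 rises and 67 falls at 24 h, and 176 rises and 79 falls at 48 h. Their median lay 0.01 above that of all genes at 24 h and 0.30 above it at 48 h, so at 48 h other genes of that chromosome also lay above the median of all genes.

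Members that neighbour each other, with at most 5 other genes between them, formed 10 runs of at least 4 members and 77 members in all. For comparison, 45.9% of all members rose and 7.73% fell at 24 h, and 44.9% rose and 23.2% fell at 48 h. Of all genes tested 26.3% rose and 22.8% fell at 24 h, and 30.6% rose and 33.9% fell at 48 h. In the run of 13 from ZNF350 to ZNF665 on chromosome 19, 10 rose and 1 fell at 24 h and 11 rose and 1 fell at 48 h. ZNF432 in that run read 9.44, 9.64 and 9.65 in Aa cells at 48 h, against 7.74, 8.20 and 7.57 in control cells. The 6 members from ZNF317 to ZNF562 had 5 rises at each time, of which ZNF426 was the largest (1.66 and 2.00). ZNF559 of that run fell at 48 h by 0.46.

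The longest run, the 21 members from ZNF264 to ZNF8, was less even. It held ZNF550, ZNF211 and ZNF304 (1.31 and 1.59) with 11 rises and 1 fall at 24 h and 12 rises and 4 falls at 48 h, but also ZNF586, which fell by 1.74 and 1.49, and ZNF587 and ZNF587B, which were called at neither time. In the run of 7 from ZNF146 to ZNF793 only ZNF875 rose, by 1.83 and 1.75, and 3 members fell at 48 h. The 6 from ZNF85 to ZNF43 had 2 rises at 24 h and 4 at 48 h, with 0 falls. The 5 from ZNF45 to ZNF180 had 2 rises and 1 fall, then 2 of each. The 4 from ZNF579 to ZNF580 had 0 rises, with 1 fall and then 2. On chromosome 12 the 4 from ZNF605 to ZNF268 had 0 calls, then 1 of each. On chromosome 7 the 5 from ZNF736 to ZNF92 had 1 of each, then 2 of each. The 6 from ZNF398 to ZNF746 there had 5 rises and 0 falls, then 3 and 1. Neighbours share sequence, so signal may be shared between probe sets: 63 of the 207 probe sets used carried a suffix that marks such sharing.

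**Figure D4:**
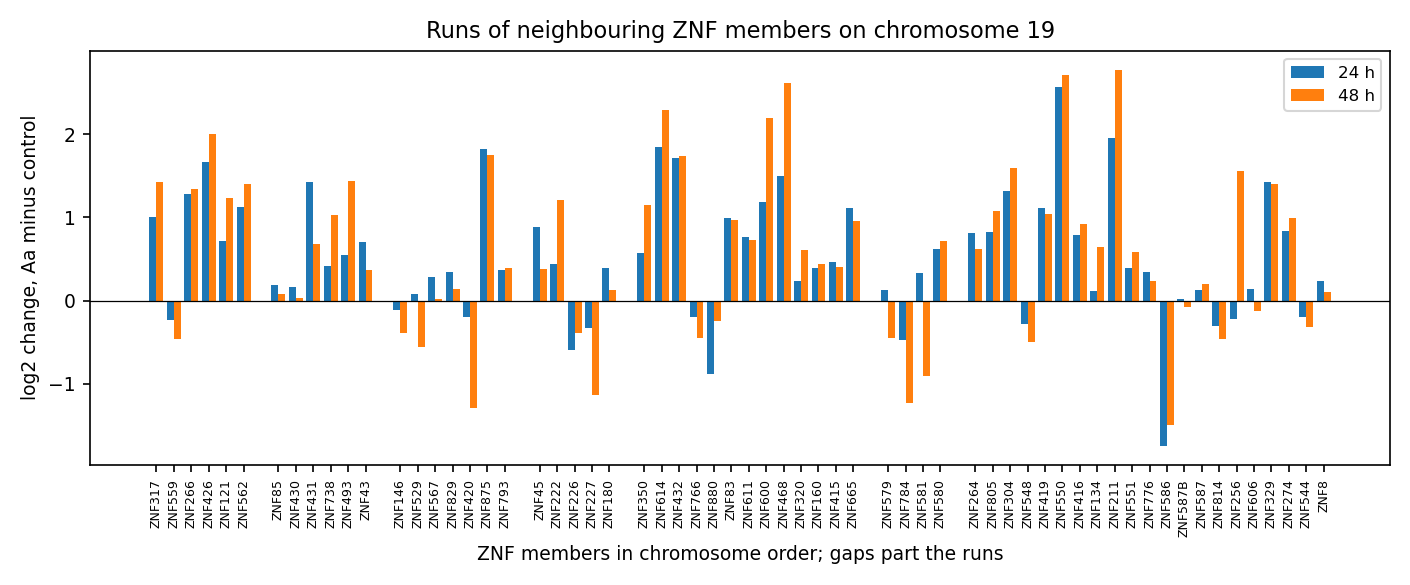
Log2 change of Aa minus control at 24 h and 48 h (bars) for members in runs of at least 4 neighbours on chromosome 19, in chromosome order with gaps between runs. Bars point up for most members from ZNF317 to ZNF562 and from ZNF350 to ZNF665, while ZNF586 and ZNF420 point down beside rising neighbours. With the hybridisation-control scaling every bar is lower by 0.28 at 24 h and by 0.44 at 48 h.

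The members were also split by gene span, again with no test between the classes. Of the 76 members spanning under 20 kb, 40 rose and 13 fell at 48 h. Of the 97 spanning 20 to 60 kb, 44 rose and 16 fell, and of the 34 spanning over 60 kb, 9 rose and 19 fell. The medians at 48 h lay 0.53 and 0.27 above and 0.50 below that of all genes. Among other genes with the same control level the order was the same: medians lay 0.15 and 0.08 above and 0.63 below that of all genes, and in the class over 60 kb 319 of 2652 rose and 1648 fell. Spearman's rho of span and 48 h change was -0.25 over the 207 members and -0.36 over 8606 other genes, given as a description. ZNF407, the member with the longest span (468 kb), ZNF362 (173 kb), ZNF827 (181 kb) and ZNF618 (180 kb) all belong to the long class. So do ZNF503 (122 kb), ZNF331 (77 kb) and ZNF600 (69 kb), which rose at both times. Within chromosome 19 the rho was -0.07 over 91 members, and over the 116 members elsewhere it was -0.37.

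**Figure D5:**
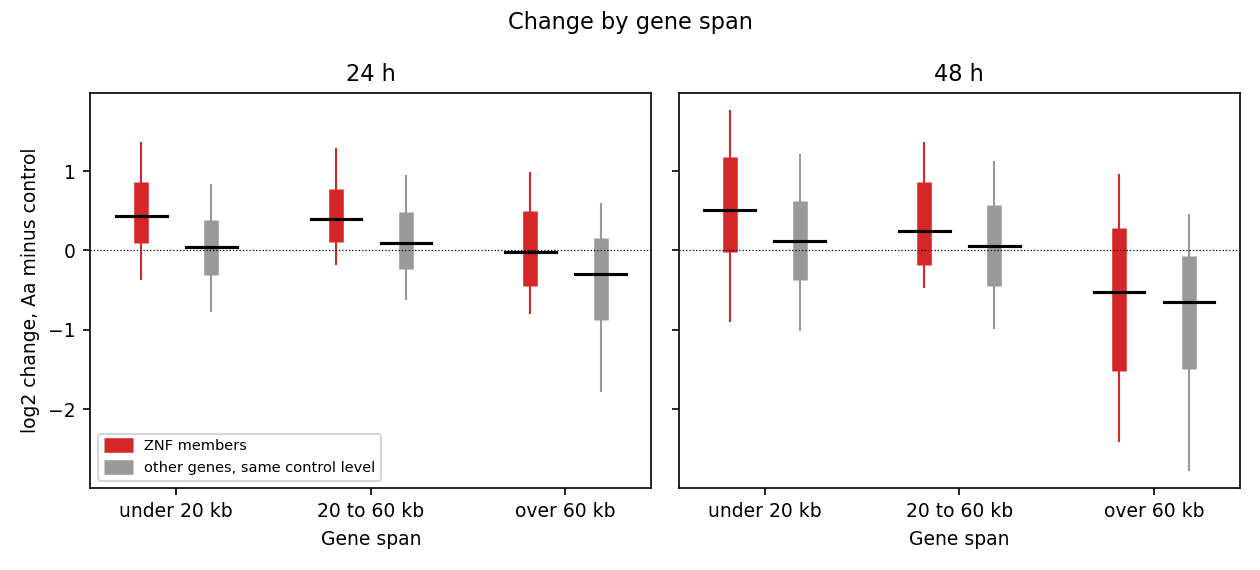
Log2 change of Aa minus control at 24 h and 48 h by gene span, for members and for other genes with the same control level (thick bars, middle 50% of genes; thin lines, the 10th to the 90th percentile; black lines, medians). In the class over 60 kb the 48 h median was -0.52 for members and -0.65 for other genes, while the under 20 kb class of members had 0.50. With the hybridisation-control scaling all 48 h values are lower by 0.44.

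Of the ZNF genes left out by the control level 140 were tested. Some passed the filter on low values only through the Aa arrays, so their calls are not counted. In Aa cells the means of 33 of them exceeded log2 6.5 at 24 h and of 36 at 48 h. Members with an Aa mean at or under that level numbered 8 at 24 h and 19 at 48 h. These counts ask for no call. Since the same level parted the members from these genes, each side could cross it in a single direction only. How many of all genes crossed it was not counted. The largest rise among the non-members, picked after its values were seen, was ZNF137P, annotated as a pseudogene. It read 8.28, 8.27 and 7.82 in Aa cells at 24 h against 2.60, 2.77 and 2.97 in control cells, and 8.75, 8.81 and 8.61 at 48 h against 3.27, 2.71 and 2.75. With the control arrays set to log2 4 the signal was at least 17.4-fold higher at 24 h and at least 26.4-fold higher at 48 h. ZNF513, ZNF34 and ZNF547 likewise had control arrays at background, with signals at least 10.8-fold, 6.76-fold and 4.75-fold higher at 24 h and at least 6.26-fold, 15.7-fold and 7.73-fold higher at 48 h. ZNF767P, also a pseudogene by its symbol, rose by 3.60 at 24 h and was at least 12.3-fold higher at 48 h.

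Other zinc finger symbols at the same control level were counted for comparison. Of 10 ZSCAN and ZKSCAN genes, which pair a SCAN domain with C2H2 fingers, 8 rose and 1 fell at 24 h and 6 rose and 2 fell at 48 h. Of 23 ZBTB genes 10 rose and 3 fell at 24 h and 8 rose and 8 fell at 48 h, and of 7 ZFP genes 4 rose and 1 fell and then 2 rose and 3 fell. The 9 ZC3H genes, with RNA-binding CCCH fingers, had 4 rises and 0 falls at 24 h and 3 rises and 0 falls at 48 h. The 46 RNF genes, ubiquitin ligases with RING fingers, had 16 rises and 7 falls at 24 h and 14 of each at 48 h. Of all genes with that control level 24% rose and 25.3% fell at 24 h, and 28.2% rose and 37.6% fell at 48 h. Differences between these families were not tested.

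Of the 207 members, 108 had at least 2 probe sets above background. All of a member's probe sets moved the same way in 75 of these at 24 h and in 82 at 48 h, and among those whose change was called in 47 of 58 and 62 of 75. The remaining 99 members rest on a single probe set above background.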

How the data were processed

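The deposited values of the 12 arrays were log2 expression per probe set, made by the authors with GCRMA, per the labels; no version is stated there. Of 54675 probe sets, 62 were controls, 41091 named 1 gene in the platform annotation, 1801 several and 11721 none. Genes with a value over log2 4 on at least 3 arrays (11184) entered a single linear model of 4 group means with moderated variances (limma 3.58.1, R 4.3.3; 8 residual degrees of freedom), with Benjamini-Hochberg adjustment over all of them and a threshold of 0.05. Levels at or under log2 4 were treated as background, and bounds were computed with such arrays set to log2 4. On data simulated for Aa minus control at 24 h over 11184 genes, 82% of 200 genes changed by log2 1 and 99% of those changed by log2 2 were recovered. Of the calls made there 3.53% and 5.26% were false. The simulation changed only 200 genes and drew independent noise without pairing of replicates, so these shares need not hold for the real arrays. The number of arrays limits the precision: the median SE was 0.16 for a change.

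The replicate numbers pair the samples: same-numbered arrays deviated together in all 18 pairs of groups' arrays (r 0.279 to 0.577), against -0.371 to -0.0286 in the 36 other pairs. These are deviations from group means, which cancel out within a group, so positive same-numbered pairs push the other pairs to negative values. The main model leaves this pairing out, and the replicate block takes it in. The members and lists were chosen with earlier results of these data known. Named members are the 8 largest rises and falls per time with groups that do not overlap, the 4 largest differences between times each way, the 5 highest control means, the 3 nearest the threshold on each side, the 3 least changed and the list of known roles. Other members named for a run, a small count or their direction were chosen after their values were seen. Alternatives covered the replicate block, scaling, filter, probe set, arrays in the fit, variance model, member rule and single arrays left out.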

Additional observations from a re-analysis of the deposited data

Results flagged for a closer look

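The change at 48 h and the change at 24 h were tested against each other within 1 model. By limma's adjusted p under 0.05 the 48 h change was above the 24 h change in 13 members and below it in 23, 6.28% and 11.1% of the members, against 6.8% and 12.7% of all genes, so both shares were near the background. Leaving out single arrays gave 4.35% to 16.9% of the members below. Of the members named for this difference, it was 1.77 for ZNF256, 1.26 for ZNF331, 1.18 for ZNF473 and 1.11 for ZNF468, which were higher at 48 h, and -2.49 for ZNF362, -2.03 for ZNF33B, -1.81 for ZNF827 and -1.67 for ZNF770, which were lower. The value of ZNF33B comes from a probe set shared with related transcripts. Its other probe set over the filter was at background in control cells, so it could show no fall.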

How the results depend on the processing

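The members' counts at 24 h and 48 h stayed within 1.5 times of the values given, and the medians kept their sign, under all alternatives except scaling on the hybridisation controls and, for 24 h falls, the choice of members by the Aa arrays. With the hybridisation controls 26.1% rose and 15.9% fell at 24 h (median 0.075) and 26.6% rose and 40.1% fell at 48 h (median -0.20), since every change shifts down. The 48 h change was then above the 24 h change in 3.86%, and between Aa 48 h and Aa 24 h 1.93% rose and 56.5% fell, and 7.73% fell between the control times. With the replicate number as a block, which pairs the samples, 10.6% of members lay above and 24.2% below in the difference between times, 16.9% rose between the Aa times, and 5.80% rose and 1.45% fell between the control times, and the counts for Aa against control moved by less than 1.5 times. Without a filter on low values 6.28% lay below in the difference. Choosing members by the Aa arrays gave 3.45% falls at 24 h and medians of 0.48 at 24 h and 0.46 at 48 h, by all 12 arrays a 48 h median of 0.37, and above a control mean of log2 7.5 a share of 4.13% above in the difference. The mean of all probe sets gave a 24 h median of 0.23. Leaving out single arrays gave 4.35% to 16.9% below in the difference, 9.18% to 15.5% falls between the Aa times, and 0% to 1.93% rises and 0% to 0.483% falls between the control times. The cause of these moves other than the shift was not tested.

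Among the named genes' values under the alternatives, 2339 kept direction and call, 50 gained a call, 94 lost it and 61 changed sign, most of them changes close to 0. With the hybridisation controls the 24 h changes became -0.071 for ZNF664, -0.067 for ZNF639, -0.10 for ZNF605, -0.26 for ZNF175, -0.26 for ZNF587B, -0.27 for ZNF428, -0.24 for ZNF143, -0.091 for ZNF281, -0.18 for ZNF267, -0.19 for ZNF93 and -0.018 for ZNF384, and the 48 h changes -0.44 for ZNF175, -0.40 for ZNF428, -0.14 for ZNF143, -0.39 for ZNF281, -0.26 for ZNF462, -0.045 for ZNF267, -0.012 for ZNF91 and -0.20 for ZNF93. Quantile normalisation gave 0.0024 for ZNF664 at 48 h and, at 24 h, -0.014 for ZNF175, -0.0089 for ZNF143, -0.025 for ZNF428 and -0.026 for ZNF587B. Equal array medians gave -0.020 for ZNF175 at 48 h and 0.0065 for ZNF148 at 24 h. The mean of all probe sets gave at 24 h -0.023 for ZNF770, -0.017 for ZNF24, 0.060 for ZNF777, -0.0059 for ZNF175, -0.11 for ZNF93 and 0.49 for ZNF268, and at 48 h -0.091 for ZNF462 and -0.061 for ZNF91. Probe sets without a suffix gave at 24 h 1.06 for ZNF33B, -0.016 for ZNF428, -0.016 for ZNF93, -0.18 for ZNF638, -0.028 for ZNF395 and -0.74 for ZNF274, and at 48 h 0.35 for ZNF33B. Leaving out single arrays, the 24 h changes ran from -0.052 to 0.10 for ZNF143, -0.20 to 0.11 for ZNF148, -0.049 to 0.11 for ZNF175, -0.16 to 0.036 for ZNF217, -0.18 to 0.13 for ZNF268, -0.016 to 0.039 for ZNF428, -0.051 to 0.13 for ZNF587B, -0.39 to 0.080 for ZNF777 and -0.021 to 0.19 for ZNF93, and the 48 h changes from -0.11 to 0.11 for ZNF175, -0.0070 to 0.12 for ZNF428, -0.18 to 0.060 for ZNF587B and -0.13 to 0.0040 for ZNF664. Probe sets near log2 4 can show no further fall.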
